A study of Mus musculus with 6 samples.

Results

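The Krüppel-like factors are a family of zinc finger transcription factors, and 10 of their genes (KLF3, KLF4, KLF5, KLF6, KLF7, KLF9, KLF10, KLF11, KLF13 and KLF15) were examined in the mouse L-cell line mGLUTag, an endocrine line of the gut that secretes GLP-1. The members were every probe whose symbol, in upper case, was on this list, which gave 16 of the 45281 probes of the array and all 10 listed genes of 30854 gene symbols. The cells had been starved in low serum, synchronized with forskolin, an activator of cAMP synthesis, and returned to growing medium. RNA was taken at 4 h (3 samples) and at 16 h (3 samples) after synchronization, which the study chose as the peak and trough of the clock gene Arntl. All 6 samples were of the same line and had the same synchronization, there was no unsynchronized sample, and each sample was measured on 1 array of an Illumina BeadChip. The labels do not say whether the samples of a time point were separate cultures, so the p-values measure only the spread between these samples. In such bulk RNA, fewer cells that express a gene and less of its RNA per cell cannot be told apart.

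Krüppel-like factors bind GC-rich and CACCC-type DNA through zinc fingers at their C-terminus, and differ in their N-terminal parts, through which some recruit corepressors and others coactivators. In the intestinal epithelium, KLF5 is known for the proliferating crypt cells and KLF4 for differentiation. KLF9, KLF10 and KLF11 have been linked to the circadian clock, KLF9 and KLF15 are also induced by glucocorticoids, and KLF10 and KLF11 were first described as genes induced early by TGF-β. The comparison therefore asked which of these genes were detectable in this endocrine line, and whether KLF9, KLF10 and KLF11 differed between these time points.

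The promoters of the genes are described first, since the clock acts on its targets through short DNA motifs. RefSeq promoter sequences (build GRCm38.p6, 250 bases before to 50 bases after a transcription start) were held for 8 of the 10 genes and not for KLF5 and KLF10. On either strand, the canonical E-box CACGTG, which is bound by BMAL1 and CLOCK, was present in 4 of the 8, namely KLF4, KLF6, KLF11 and KLF15, and in 7.15% of 32851 promoters of that length. The letters TGACG, one arm of the cAMP response element, were present in 5 of the 8 (KLF3, KLF4, KLF9, KLF13 and KLF15) and in 20.8% of all promoters, whereas the full element TGACGTCA was in 0 of the 8 and in 1.79% of all. The letters AGGTCA, the core of the ROR and REV-ERB element, were in 0 of the 8 and in 16.3% of all. The GC box GGGCGG was in 7 of the 8, all but KLF9, and in 35.7% of all. The letters CACCC, which the factors themselves can bind, were in 5 of the 8 and in 57.5% of all. These promoters held between 58.3% and 77.7% G and C, against a median of 52.7% over all promoters, and a share of motifs over promoters of other composition is a description only.

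To show where these letters lie, the promoters of KLF9 and KLF11, 2 of the 3 clock-linked genes, are printed with those of KLF15, which held the most E-boxes, and KLF6, which was well detected in these cells. Capitals mark CACGTG and TGACG on either strand. KLF11 lies on the plus strand of chr12:24651121-24651420 and holds 1 E-box whose first base is 214 bases before the start. KLF9 (plus strand, chr19:23140976-23141275) holds no CACGTG and 1 TGACG, 46 bases before the start. KLF15 (plus strand, chr6:90462326-90462625) holds 3 E-boxes that begin 228, 172 and 3 bases before the start, the last of which shares bases with a TGACG on the opposite strand. KLF6 (plus strand, chr13:5861239-5861538) holds 1 E-box, 43 bases before the start.
KLF11: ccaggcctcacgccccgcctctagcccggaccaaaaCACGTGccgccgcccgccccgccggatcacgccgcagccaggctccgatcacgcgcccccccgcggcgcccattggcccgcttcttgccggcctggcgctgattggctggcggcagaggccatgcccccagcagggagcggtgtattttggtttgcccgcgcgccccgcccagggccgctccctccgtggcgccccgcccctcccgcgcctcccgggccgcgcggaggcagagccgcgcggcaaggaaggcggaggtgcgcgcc
KLF9: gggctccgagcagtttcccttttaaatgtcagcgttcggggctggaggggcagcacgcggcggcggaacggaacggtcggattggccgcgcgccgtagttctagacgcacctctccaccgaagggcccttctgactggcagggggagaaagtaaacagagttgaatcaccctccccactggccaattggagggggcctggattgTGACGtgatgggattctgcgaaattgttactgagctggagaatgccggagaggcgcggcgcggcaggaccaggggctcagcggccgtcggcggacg
KLF15: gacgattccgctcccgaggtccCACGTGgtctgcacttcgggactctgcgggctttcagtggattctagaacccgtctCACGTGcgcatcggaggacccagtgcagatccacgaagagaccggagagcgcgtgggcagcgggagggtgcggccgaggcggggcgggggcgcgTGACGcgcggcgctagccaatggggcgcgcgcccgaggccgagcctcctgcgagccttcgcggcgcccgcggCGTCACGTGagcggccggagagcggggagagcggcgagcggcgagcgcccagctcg
KLF6: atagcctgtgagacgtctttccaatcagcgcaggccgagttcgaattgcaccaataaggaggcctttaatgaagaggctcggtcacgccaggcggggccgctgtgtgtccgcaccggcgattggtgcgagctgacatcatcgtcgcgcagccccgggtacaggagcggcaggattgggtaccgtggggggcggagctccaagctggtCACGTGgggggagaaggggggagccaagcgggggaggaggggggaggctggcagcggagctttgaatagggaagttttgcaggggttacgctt

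To judge which genes were detected, the deposited intensity of each probe was compared with a noise limit for its array, defined as the 99th percentile of the sizes of its negative values. The limits lay between 9.2 and 14 intensity units, and 38.4% of all probes were above them on 3 or more arrays. By this measure 7 of the 10 genes were detected, and KLF4, KLF5, KLF6, KLF7, KLF10 and KLF13 were above the limit on all 6 arrays. KLF3 was above it on 3 arrays, KLF15 on 1 array, and KLF9 and KLF11 on 0 arrays. Intensities of different genes are not set against each other here, since probes differ in how well they bind.

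Of the clock-linked genes, KLF9, a repressor induced by glucocorticoids and thyroid hormone, was not above the noise limit. Its probe (ILMN_1254031) had deposited intensities of 7.5, -0.9 and -1.7 at 4 h and of 5.5, 0.9 and 5.0 at 16 h. These values scatter on both sides of 0 and the time points overlap. A further probe under an older name of the gene, which is outside the rule, was also above the limit on 0 arrays.

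KLF11, which is known as a glucose-responsive regulator of the insulin gene in β-cells, was likewise below the limit on each array. Its probe (ILMN_1244957) gave 6.3, 4.9 and 2.8 at 4 h and -0.7, -3.7 and -7.2 at 16 h. Every 4 h value was above every 16 h value, but all 6 lay within the range of the noise, and so they are no measurement of a transcript level. KLF11 was the 1 probe among the 16 whose deposited values did not overlap between the time points, against 24.2% of all probes in either direction and 20.3% with the higher values at 4 h.

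KLF10, the TGF-β inducible early gene that recruits the SIN3 corepressor, was the detected member of the clock-linked group. Its probe (ILMN_2648189) had intensities of 30.0, 27.2 and 29.1 at 4 h and of 27.5, 33.3 and 29.5 at 16 h. The deposited values were low, narrow in spread and overlapping. A second probe, under the older symbol TIEG, was above the limit on 0 arrays.

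**Figure D1:**
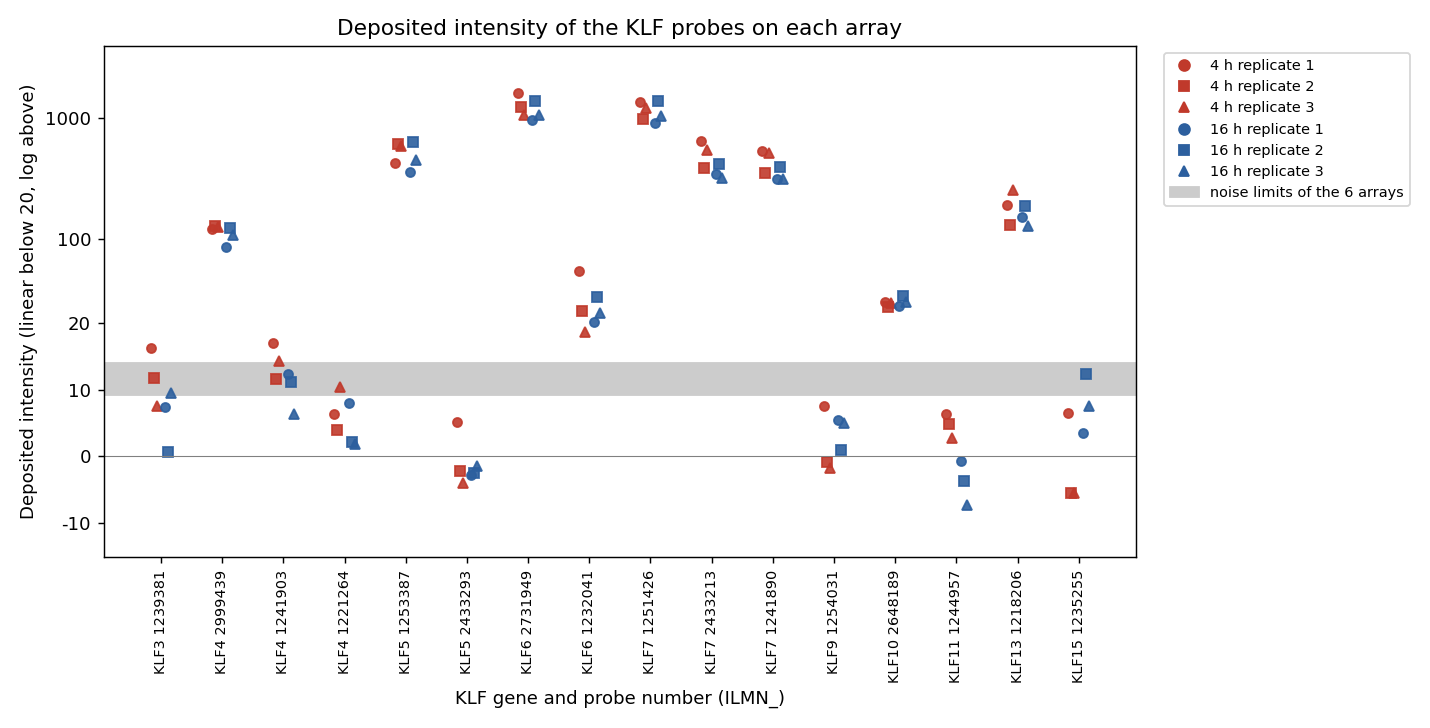
Deposited intensity (vertical axis, linear near 0 and log above) of each of the 16 KLF probes (horizontal axis) on the 6 arrays, in red at 4 h and in blue at 16 h, with 1 marker shape for each replicate number. The grey band spans the noise limits of the arrays, from 9.2 to 14; the probes of KLF9 and KLF11 lie below it, whereas that of KLF10 lies above it with values between 27.2 and 33.3.

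The detected genes outside the clock-linked group include factors known from neurons, gut and blood. KLF7, a regulator of neuronal differentiation that is also known to repress insulin expression, was detected by each of its 3 probes. The probe with the highest mean (ILMN_1251426) had 4 h intensities of 1364, 994 and 1216, and 16 h intensities of 918.8, 1384 and 1044. KLF6, an early response factor and tumour suppressor, had 1610, 1252 and 1059 at 4 h against 963.4, 1389 and 1066 at 16 h (ILMN_2731949). In both genes the ranges of the time points overlap, and the lowest value was in 16 h replicate 1.

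KLF5 (ILMN_1253387) gave 428.9, 612.7 and 591.4 at 4 h and 355.2, 634.9 and 453.1 at 16 h. KLF4 (ILMN_2999439) gave 120.9, 128.5 and 126.1 at 4 h and 85.9, 123.1 and 106.9 at 16 h. KLF13, known from T lymphocytes as an activator of the chemokine gene CCL5, gave 189.0, 129.3 and 253.7 at 4 h and 152.7, 186.9 and 127.8 at 16 h (ILMN_1218206). For KLF13 a further probe under an older name was also above the limit on all 6 arrays. In these 3 genes as well, the time points overlap.

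KLF3, a repressor that works through the corepressor CtBP, was at the edge of detection, with 16.2, 11.8 and 7.5 at 4 h against 7.4, 0.7 and 9.5 at 16 h. The 3 values above the limit were those of 4 h replicates 1 and 2 and of 16 h replicate 3. KLF15, which controls amino acid and glucose metabolism in liver and muscle, gave 6.5, -5.4 and -5.4 at 4 h and 3.5, 12.3 and 7.5 at 16 h, and only 16 h replicate 2 was above the limit. The remaining probes of KLF4 and KLF5 differed in detection from the brighter ones: of the 2 further KLF4 probes 1 was above the limit on 5 arrays and the other on 0, and the second KLF5 probe was above it on 0.

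The time points were then compared after normexp correction with an offset of 50, quantile normalization and log2 transformation, because the 4 h arrays were brighter throughout. The mean intensity over all probes of an array was between 291.3 and 353.9 at 4 h and between 216.0 and 245.6 at 16 h, and the median log2 ratio of 4 h over 16 h was 0.55 among the 14941 probes detected on all arrays, with a 10th percentile of 0.24 and a 90th percentile of 0.87. For the 6 KLF genes detected on all arrays, at the probe with the highest mean, the log2 ratios of deposited means were -0.07 for KLF10, 0.09 for KLF7, 0.18 for KLF5, 0.20 for KLF6, 0.25 for KLF4 and 0.29 for KLF13. The first 4 of these lay below that 10th percentile, and all 6 lay below the median. No ratio is given for KLF3, since 2 of its 3 values at 16 h were below the noise limit. The further detected probes among the 16 lay closer to that median, with 0.55 and 0.45 for KLF7, 0.52 for KLF4 and 0.33 for KLF6. The further KLF13 probe, under an older name and outside the rule, did not: it was at 0.15, also below the 10th percentile.

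After normalization, 0 of the 10 KLF genes and 0 of the 16 probes passed the threshold of 0.05 by limma with Benjamini-Hochberg adjustment over all probes, which called 0.00883% of all probes. The smallest adjusted p among the 16 was 0.720. An unadjusted p under 0.05 was found for 4 of the 16 probes (3 lower and 1 higher at 4 h), against 5.41% of all probes. Of these 4, KLF7 and KLF10 were detected, whereas KLF11 and KLF15 lay within noise on all or most arrays. For 3 of the 16 the normalized values at 4 h and 16 h did not overlap (2 lower and 1 higher), against 10.9% of all probes. Of the 10 genes, each taken at its probe with the highest mean, 8 had a log2 change below 0 and 2 above it. This count includes KLF9, KLF11 and KLF15, which were not detected. Of the 7 detected genes, 6 were below 0 and 1 above it, with a median of -0.22 against 0.0045 over all detected probes. The median log2 change was -0.21 over the 10 genes and 0.00045 over all probes, of which 38.4% were detected.

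Among the clock-linked genes, the normalized log2 intensity of KLF10 averaged 6.44 ± 0.07 (SD, n = 3) in the 4 h samples, against 6.64 ± 0.09 (SD, n = 3) in the 16 h samples. Its arrays read 6.38, 6.51 and 6.43 at 4 h, against 6.54, 6.67 and 6.71 at 16 h, so that each 4 h value lay below each 16 h value. The log2 change was -0.20 (SE 0.074, 95% interval -0.37 to -0.04), with an unadjusted limma p of 0.0229 and a limma adjusted p of 0.833, which did not pass the threshold. When only detected probes were fitted, the SE was 0.104 and the unadjusted limma p 0.077. With a variance trend and a robust variance fit they were 0.103 and 0.0614, so that the interval of KLF10 included 0 in these fits. The size of the change depended on the background correction: it was -0.32 with an offset of 16 and -0.63 with no background correction (limma adjusted p = 0.907 and 0.778). The deposited means of KLF10 were 28.8 at 4 h and 30.1 at 16 h, and the negative difference is relative to the transcripts that were brighter at 4 h.

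For KLF9 and KLF11, both within noise, the fitted values are given for completeness. KLF9 had a log2 difference of -0.07 (95% interval -0.24 to 0.09, limma adjusted p = 0.962). Its value was -0.16 with an offset of 16 and -0.88 with no background correction (limma adjusted p = 0.953 and 0.929). KLF11 had a log2 difference of 0.20 (95% interval 0.04 to 0.37, limma adjusted p = 0.829). With an offset of 16 the KLF11 value was 0.46, and with no background correction it was 1.97 (limma adjusted p = 0.848 and 0.396). With an offset of 50, differences between values this close to background are compressed, so these intervals do not bound a change of the transcript. A difference in KLF9 or KLF11 was not detectable on these arrays.

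For Arntl, the control of the time points, the log2 difference was 0.52 with an SE of 0.069. Its values did not overlap, but with a limma adjusted p of 0.141 it was not called either. Arntl was called with median scaling (0.78) and with no between-array normalization (0.87), with a limma adjusted p of 0.0309 in both, and KLF9, KLF10 and KLF11 were called in neither. In these settings 1.84% and 5.1% of all probes were called, all of them higher at 4 h. The Arntl difference also depended on the background correction, with 0.69 at an offset of 16 and 0.96 without correction.

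**Figure D2:**
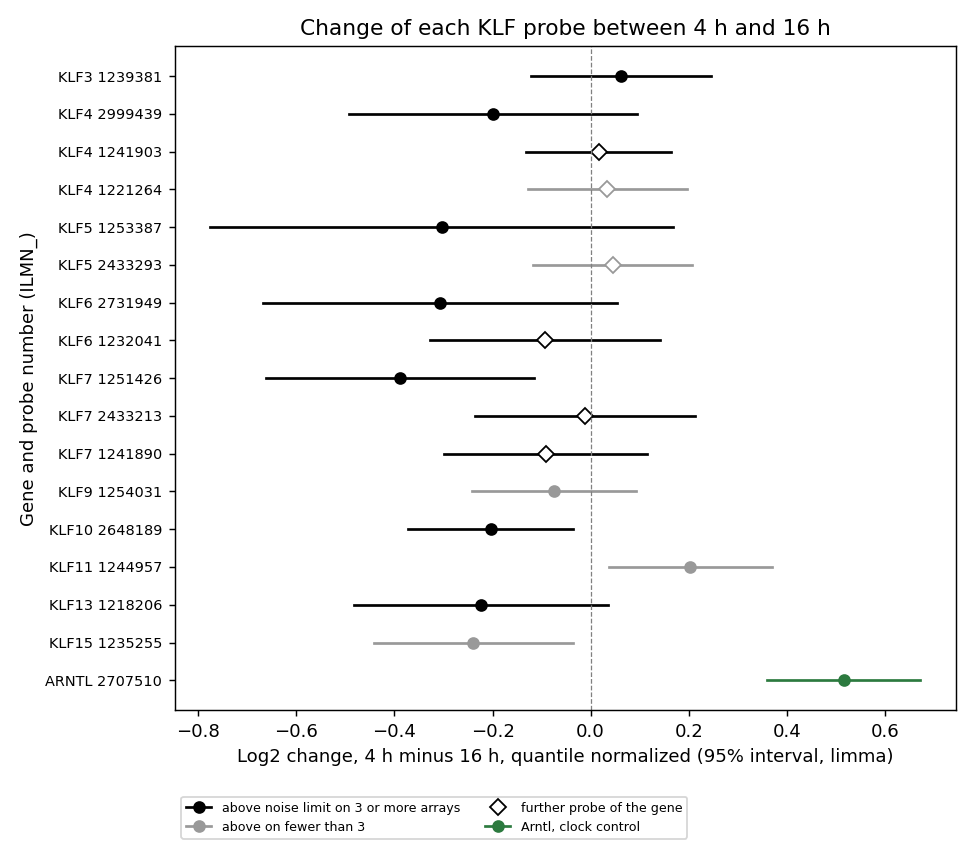
Log2 change (4 h minus 16 h, horizontal axis) of each KLF probe and of Arntl after quantile normalization, with 95% intervals from limma; grey marks probes that exceeded the noise limit on fewer than 3 arrays and open diamonds mark further probes of a gene. The intervals of KLF10 (-0.37 to -0.04) and of 1 KLF7 probe (-0.66 to -0.12) lie below 0, whereas the other detected KLF probes have intervals that include 0.

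The probes of KLF7 disagreed. Probe ILMN_1251426 averaged 10.03 ± 0.09 (SD, n = 3) in the 4 h samples, against 10.42 ± 0.26 (SD, n = 3) in the 16 h samples, and the log2 difference was -0.39 (SE 0.12, 95% interval -0.66 to -0.12). Its limma adjusted p of 0.720 was the smallest of the 16 probes. The 4 h values of 10.13, 9.96 and 10.01 all lay below the 16 h values, but 16 h replicate 1 was only just above them, with 10.14 against 10.62 and 10.51 in the other two.

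The other KLF7 probes gave -0.01 (95% interval -0.24 to 0.21) for ILMN_2433213 and -0.09 (95% interval -0.30 to 0.11) for ILMN_1241890. To compare probes with no influence of array brightness, the log2 ratio of the first probe over each of the other two was taken within each array from the deposited values. Over ILMN_2433213 this ratio averaged 1.20 ± 0.16 (SD, n = 3) in the 4 h samples and 1.62 ± 0.18 (SD, n = 3) in the 16 h samples. Over ILMN_1241890 the averages were 1.37 ± 0.14 and 1.70 ± 0.14. These ratios describe the disagreement of the probes already seen in their log2 differences, and all 16 h arrays lay above all 4 h arrays in both. The positions of the probes in the transcript were not used here. When the 3 probes were averaged the log2 change was -0.16 (limma adjusted p = 0.940).

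**Figure D3:**
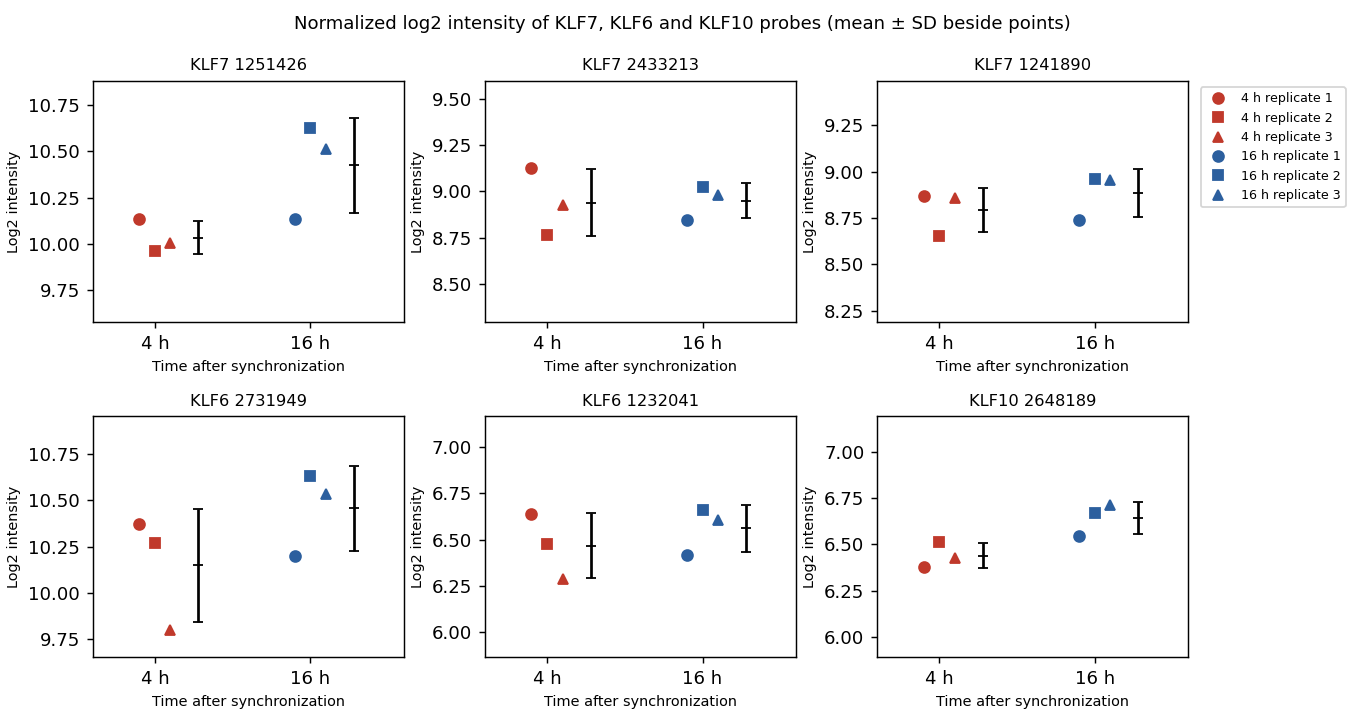
Normalized log2 intensity (vertical axis, each panel spanning the same 1.3 units) of the 3 KLF7 probes, the 2 KLF6 probes and the KLF10 probe at 4 h and 16 h; points are arrays, and bars beside them are the mean ± SD of 3 arrays. The time points do not overlap for KLF7 probe ILMN_1251426 and for KLF10, whereas they do for the other 4 probes.

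KLF6, KLF5, KLF4 and KLF13 had log2 changes below 0 with intervals that included 0. The difference was -0.31 (95% interval -0.67 to 0.05) at the brighter KLF6 probe and -0.09 (95% interval -0.33 to 0.14) at the other. For KLF5 it was -0.30 (95% interval -0.78 to 0.17), and this gene had the widest spread, 0.97 on the log2 scale over the 6 arrays. For KLF4 it was -0.20 (95% interval -0.49 to 0.09) and for KLF13 -0.22 (95% interval -0.48 to 0.04), with -0.23 at the further KLF13 probe. The further detected KLF4 probe was at 0.02, and averaging the detected probes of a gene gave -0.09 for KLF4 and -0.20 for KLF6. For KLF3 it was 0.06 (95% interval -0.12 to 0.25), and KLF15, below the noise limit on 5 of 6 arrays, had a fitted difference of -0.24 (limma adjusted p = 0.854). Both depended on the background correction: with none, KLF3 was at 1.06 and KLF15 at -2.21, and with an offset of 16 KLF15 was at -0.50, so that neither value bounds a change of the transcript.

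The arrays also differed in a way that is not the time point. The probes for 18S ribosomal RNA were higher on 4 h replicates 1 and 3 and 16 h replicate 1 than on the other 3 arrays, with mean log2 values of 8.48, 10.55 and 9.22 against 6.90, 7.69 and 7.01. On those 3 arrays the brighter KLF5 probe was at 8.60, 9.03 and 8.89, below its values of 9.34, 9.57 and 9.43 on the other 3. The brightest KLF4 probe was at 7.22, 7.32 and 7.31 on them, below 7.58, 7.66 and 7.75 on the other 3. The other probes of KLF5 and KLF4 did not share this: 1 of each overlapped between the sets, and the KLF4 probe within noise on all arrays was higher on those 3 arrays. In all, 3 of the 16 KLF probes did not overlap between the sets, against 14.1% of all probes, and nothing particular to the KLF genes is read from this count. With this separation as a block, the log2 change was -0.11 for KLF5, -0.08 for KLF4, -0.21 for KLF6, -0.34 for KLF7, -0.16 for KLF10, -0.24 for KLF13 and 0.07 for KLF3. The part of 18S ribosomal RNA in these differences was not tested.

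The direction of the KLF changes depended on how the arrays were scaled. Without between-array normalization, the 7 detected genes had log2 changes between 0.03 (KLF10) and 0.21 (KLF13), all above 0, while the median of the detected probes was 0.36. With median scaling 6 of the 7 were above 0 and KLF10 was at -0.06, with a median of 0.27 over detected probes. Relative to that median, 7 of 7 lay below it in both of these settings. After quantile normalization 6 of 7 lay below the median of 0.0045, as they did with cyclic loess and with linear scaling, KLF3 being the exception.

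**Figure D4:**
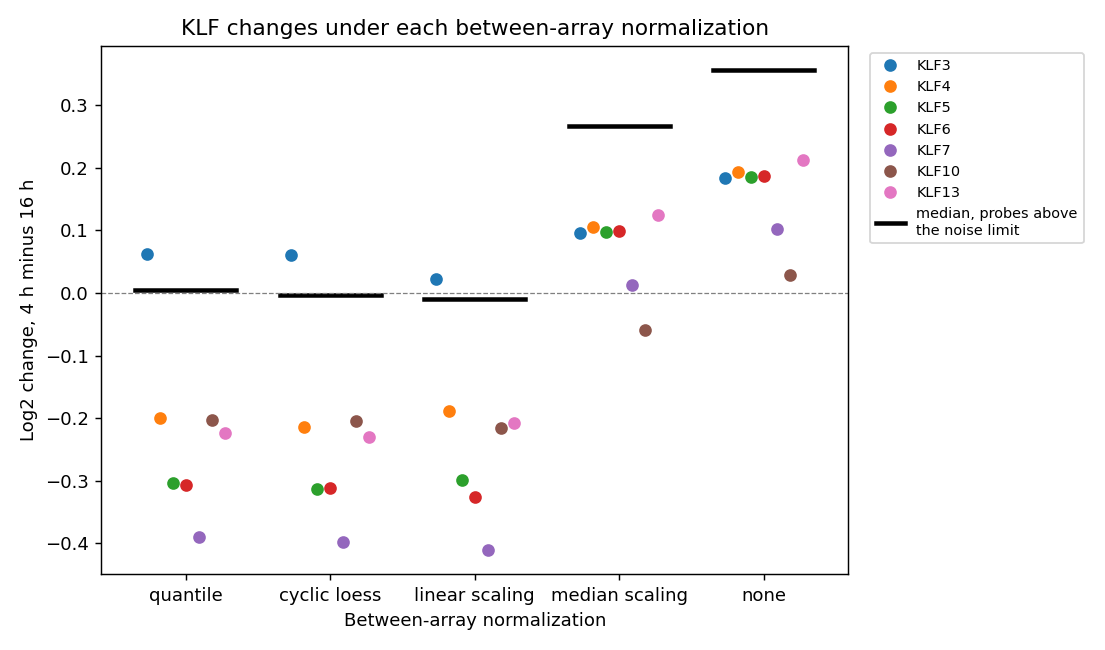
Log2 change (4 h minus 16 h, vertical axis) of the 7 detected KLF genes (coloured points) under 5 between-array normalizations (horizontal axis); the black bar is the median of all detected probes in that setting. The bar rises from 0.0045 with quantile normalization to 0.36 without normalization; KLF3 rises less, from 0.06 to 0.18, and KLF10 and KLF7 are the lowest in the last 2 settings.

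To place the 10 genes among their relatives, the remaining KLF genes and the SP factors, which share the zinc finger domain, were examined. Of these 16 genes, 5 were detected: KLF16, SP1 and SP2 on all 6 arrays, and SP5 and SP6 on 3 arrays each. KLF2, the relative known from endothelium and lymphocytes, was above the limit on 1 array. Of the 16, 0 were called, 9 had a log2 change above 0 and 7 below, and the median was 0.02. SP5 had 20, 18.8 and 16.5 at 4 h and 4.3, -0.6 and 9.0 at 16 h, so that it counted as detected through the 4 h arrays alone and its 16 h values lay within noise (log2 difference 0.21, limma adjusted p = 0.877). SP2 had a log2 difference of 0.07 (limma adjusted p = 0.979). Of the cofactors and ubiquitin ligases of KLF proteins, 11 of the 12 with a probe were detected and 0 were called, with a median of -0.0097. The acetyltransferase gene Kat2b had a log2 difference of 0.27 (limma adjusted p = 0.668), and Sin3a, the corepressor partner of KLF10 and KLF11, by -0.16 (limma adjusted p = 0.925).

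Genes of the pathways that are known to act on KLF9, KLF10, KLF11 and KLF15 were measured on the same arrays. Of 19 clock genes with a probe, 11 were detected and 1 was called, Tef, which was lower at 4 h (log2 change -0.81, limma adjusted p = 0.0325). The median log2 change was -0.13 over all 19, which include clock genes that were not detected and whose changes are compressed. At an unadjusted p under 0.05, 8 of the 19 were lower and 1, Arntl, was higher, against 2.6% of all probes lower and 5.41% in either direction. The Tef call was lost in 8 of 12 alternatives (limma adjusted p from 0.0278 to 0.205 over the 12) and in all 6 fits that left out 1 array (0.113 to 0.489), with a log2 change below 0 in each. Of 19 early response genes of serum and cAMP, 12 were detected and 0 were called, with a median of -0.0092; Nr4a2 had a log2 difference of -0.22 (limma adjusted p = 0.741) and Egr1 by 0.16 (limma adjusted p = 0.919). Of 9 genes of the glucocorticoid receptor and its targets, 6 were detected and 0 were called, with a median of 0.02. The kinase gene Sgk1 had a log2 difference of 0.35 (limma adjusted p = 0.371) and Per1, also a clock gene, by -0.29 (limma adjusted p = 0.587). Of 12 TGF-β pathway genes with a probe, 6 were detected and 0 were called, with a median of 0.09; Tgfb3 had a log2 difference of 0.18 and Skil by 0.36 (limma adjusted p = 0.919 and 0.920).

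The genes whose normalized values followed KLF10 most closely over the 6 arrays were sought among 11558 named probes detected on all arrays. They were DLC1 (Pearson r = 0.994), EXOC3L (0.993) and C8B (0.987), with log2 changes of -0.13, -0.30 and -0.24. As 210 of these probes had an r above 0.9 with KLF10 over only 6 arrays that share their time points, these values are a description. Neither KLF9 nor KLF11 was detected, and no such genes are given for them.

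The identity of the line was checked by its markers. Of 14 L-cell genes, 12 were detected, including proglucagon (Gcg), with intensities between 11298 and 21126, whereas Pcsk1, the convertase that releases GLP-1 from proglucagon, was above the noise limit on 1 array only. None of the 14 was called. Insl5 had a log2 difference of 0.77 and Gcg one of 0.35 (limma adjusted p = 0.371 and 0.453), and the median over the 14 was 0.12. The study's own limma analysis reported Insl5 as significantly upregulated at 4 h, with a larger change. Of 15 markers of other cells with a probe, 2 were detected, the goblet cell peptide gene Tff3 (log2 change -0.26) and Col1a1 (-0.05), 0 were called and the median was -0.04. The goblet cell mucin Muc2, the enterocyte genes Alpi and Fabp2 and the leukocyte gene Ptprc were above the limit on 0 arrays.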

How the data were processed

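Total RNA of 6 samples of synchronized mGLUTag cells (4 h and 16 h, n = 3 each) was measured on a mouse WG-6 V2 Illumina BeadChip. The authors deposited 1 linear intensity per probe and array, with background subtracted (31.2% to 34.0% of an array's values lie below 0) and without between-array normalization or detection p-values; the scanner software is not given in the sources used here. Probe sequences and positions were not used here. Normexp correction (offset 50), quantile normalization and a log2 transformation were applied with limma 3.58.1 under R 4.3.3. A linear model of the time point alone was fitted to all 45281 probes (lmFit, eBayes), with Benjamini-Hochberg adjustment of the two-sided p-values. Changes are 4 h minus 16 h. Quantile normalization removes a change shared by most transcripts, and the offset compresses those of dim probes. The noise limit is described with the first result; a gene counted as detected when a probe exceeded it on 3 or more arrays, and was stood for by its probe of highest mean log2 intensity. The number of arrays limits the precision.

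Named were every probe of the 10 genes, the 2 detected genes with the smallest p of each further list, Arntl, and the genes most correlated with a detected clock-linked member; KLF2, KLF16, SP1, SP6, Pcsk1 and the markers listed as above the limit on 0 arrays were added after their values were seen. Lists were matched by symbol or unambiguous RefSeq synonym, and Per1 and Dusp1 each stood in 2 lists. The median of a list was taken over every gene with a probe, including genes that were not detected. The members and lists were chosen with earlier results of these data known. The fit was tested on simulated data, and no value given here comes from that test. Alternatives were other background corrections and normalizations, a noise filter, other variance models, array weights, blocks, averaged probes and leaving out each array.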

Additional observations from a re-analysis of the deposited data

How the results depend on the processing

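None of the 10 KLF genes passed the threshold (limma, 0.05 after adjustment) under any of the alternatives run. With no between-array normalization the log2 change was above 0 for KLF4 (0.19), KLF5 (0.19), KLF6 (0.19), KLF7 (0.10), KLF9 (0.018), KLF10 (0.029) and KLF13 (0.21), and with median scaling it was above 0 for KLF4 (0.10), KLF5 (0.10), KLF6 (0.10), KLF7 (0.013) and KLF13 (0.12); over all detected probes the median was 0.36 and 0.27 in these settings. When 1 array was left out, the log2 change was between -0.0054 and 0.12 for KLF3, between -0.26 and -0.17 for KLF10, between -0.12 and -0.04 for KLF9, between 0.15 and 0.25 for KLF11 and between -0.53 and -0.29 for KLF7. It was between -0.51 and -0.11 for KLF5, between -0.33 and -0.11 for KLF4, between -0.44 and -0.13 for KLF6 and between -0.35 and -0.14 for KLF13. Leaving out 4 h replicate 3 moved KLF6 to -0.13 and KLF13 to -0.35. The adjusted p of KLF10 was between 0.555 and 0.999 over its alternatives. The count of detected KLF genes was 7 with a noise limit at the 95th percentile, 6 at the largest below-zero value or when all 6 arrays were needed, and 6 or 7 when 1 array was left out, KLF3 being the gene that was lost.

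The labels do not say whether equally numbered samples were paired. Over detected probes, the correlation between the deviations of equally numbered arrays was 0.24, 0.17 and -0.47, which does not settle it. With a replicate block the log2 change of KLF10 was -0.20 (limma adjusted p = 0.852) and 0 KLF genes were called. For KLF5 the log2 change stayed at -0.30, while the SE fell from 0.21 to 0.074 with the block. The unadjusted limma p of KLF5 was then 0.00449 and its limma adjusted p 0.620. Signal over background limits KLF9, KLF11 and KLF15 on all or most arrays, and KLF3 and KLF10 have deposited intensities close enough to it that their changes depend on the offset. Arntl was called with median scaling (0.78) and with no between-array normalization (0.87), where 832 and 2308 probes were called, all higher at 4 h. The alternatives for Tef were run after its call had been seen.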
